A study of Mus musculus with 14 samples.

Results

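The 10 genes described here are 6 ligands of the bone morphogenetic protein (BMP) family (Gdf2, Bmp10, Bmp5, Bmp4, Bmp2 and Bmp6), 1 receptor (Acvrl1), 1 pseudoreceptor (Bambi) and 2 genes that BMP signals switch on (Id1 and Id3). They were taken by symbol, and all 10 were found both among the 35171 gene rows of the bulk tables and among the 28692 genes of the single-cell matrix. Bulk RNA-seq gave their abundance in mouse liver as TPM, a length-corrected level scaled to the same sum in every library. Quiescent hepatic stellate cells (4 libraries, strain label LratCre+, TdTom+ in C57BL/6J) were not plated and, per the labels' protocols, were sorted for vitamin A and for TdTom driven by LratCre. Whole uninjured liver (3 libraries) carries the same strain label. Stellate cells cultured for 24 h without treatment (3 libraries) or with 10 µM UDP-glucose (3 libraries) have Balbc as their strain, and the labels describe no sorting step for these cells. For the treated libraries the titles name UDP, while the treatment labels, descriptions and protocol name UDP-glucose, which is the name used here; the files do not settle which is right. The cultured cells spent 5 h in medium with 10% serum and were then moved to 0.1% serum. No group was injured, and the labels name neither age nor pooling. A single-cell library came from a normal C57BL/6 liver.

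BMPs are secreted dimers that bring together type I and type II receptor kinases, which phosphorylate Smad1, Smad5 and Smad9. These enter the nucleus with Smad4 and switch on Id genes, whose products bind class I bHLH factors and keep them off DNA. Gdf2 encodes BMP9, which like BMP10 signals through the type I receptor ALK1, the product of Acvrl1, on endothelium, with endoglin (Eng) as co-receptor. In liver, BMP2 and BMP6 from sinusoidal endothelium act on hepatocytes, where they raise hepcidin (Hamp), the hormone that limits iron uptake, and BMP9 is known as a ligand made by stellate cells. Bambi resembles a type I receptor without a kinase and dampens signals of the TGF-β family.

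The upstream sequences of 4 ligands are shown first, because Gdf2 and Bmp10 are the pair whose proportions differed between the cultured groups, Bmp5 shares their cell class, and Bmp4 is the ligand of this set whose level differed least between quiescent and cultured cells. Each is the 250 bases before the RefSeq transcription start in GRCm38.p6, 5′ to 3′ on the gene's own strand: chr14:33940789-33941038 (plus) for Gdf2, chr6:87428744-87428993 (plus) for Bmp10, chr9:75775115-75775364 (plus) for Bmp5 and chr14:46390670-46390919 (minus) for Bmp4. Capitals mark AGATAA in Gdf2 and Bmp10 and the E box CACCTG, read as CAGGTG on this strand, in Bmp4.
Gdf2: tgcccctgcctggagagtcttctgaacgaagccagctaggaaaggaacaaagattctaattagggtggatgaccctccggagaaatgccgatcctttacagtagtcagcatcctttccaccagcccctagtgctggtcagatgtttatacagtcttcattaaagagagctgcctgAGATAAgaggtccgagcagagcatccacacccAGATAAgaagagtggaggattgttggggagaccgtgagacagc
Bmp10: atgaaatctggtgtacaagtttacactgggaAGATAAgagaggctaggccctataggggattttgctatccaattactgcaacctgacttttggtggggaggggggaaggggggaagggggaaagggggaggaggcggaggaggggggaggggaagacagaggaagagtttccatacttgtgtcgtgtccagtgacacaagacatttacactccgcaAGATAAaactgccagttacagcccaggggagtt
Bmp5: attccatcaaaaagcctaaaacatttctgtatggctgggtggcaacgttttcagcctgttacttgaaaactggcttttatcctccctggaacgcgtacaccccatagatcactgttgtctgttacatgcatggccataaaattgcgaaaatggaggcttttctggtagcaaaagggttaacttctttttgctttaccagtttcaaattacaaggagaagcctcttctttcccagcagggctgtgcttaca
Bmp4: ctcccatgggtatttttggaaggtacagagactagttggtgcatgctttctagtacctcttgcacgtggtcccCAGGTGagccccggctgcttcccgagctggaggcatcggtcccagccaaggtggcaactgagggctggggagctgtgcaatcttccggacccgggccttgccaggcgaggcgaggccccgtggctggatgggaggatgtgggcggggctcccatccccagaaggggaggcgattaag
RefSeq windows of 300 bases (250 before and 50 after the start) were at hand for 6 of the 10 genes. GGCGCC, the core of the element bound by BMP-activated Smads, was searched on both strands and found in none of these 6, beside 11.9% of all 32851 windows. CACCTG, an E box of class I bHLH factors, stood 177 bases before the start of Bmp4 and 51 bases before that of Bmp6, and 20.2% of all windows hold it. AGATAA, a form of the GATA motif searched after the sequences had been seen, stood 75 and 43 bases before the start of Gdf2 and 219 and 33 bases before that of Bmp10. Of all windows, 11.2% hold AGATAA on either strand. The motifs do not overlap each other, and a match describes these letters only.

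In the GENCODE annotation of GRCm38, Gdf2 (ENSMUSG00000072625.1) lies on chromosome 14 from 33941039 to 33947198 on the plus strand. Bmp10 (ENSMUSG00000030046.6) lies on chromosome 6 from 87428994 to 87437677, plus strand, and Bmp2 (ENSMUSG00000027358.6) on chromosome 2 from 133552159 to 133562885, plus strand. None of the exon bases of Gdf2, Bmp10, Bmp2, Bambi, Id1 or Id3 overlap another gene model. Bmp5 (ENSMUSG00000032179.7) lies on chromosome 9 from 75775364 to 75900310, plus strand, and 46.7% of its exon bases overlap the antisense model Gm26903. Since no source used here says whether strand was used, reads of Bmp5 and Gm26903 in these shared bases cannot be told apart. For Bmp6, Bmp4 and Acvrl1 the overlap was 5.74%, 3.96% and 2.98%.

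The libraries were checked against cell type markers. All 15 stellate markers were at 1 TPM or more in each of the 10 stellate cell libraries. Their sum was 62002 to 68671 TPM in quiescent cells, 79.2 to 181 TPM in liver, 10407 to 11017 TPM in cultured controls and 8314 to 9606 TPM with UDP-glucose. Alb, the main hepatocyte transcript, was 4.52 to 11.2 TPM in quiescent cells against 17092 to 30006 TPM in liver. Markers of sinusoidal endothelium were all present in quiescent libraries (13 of 13 at 1 TPM or more, summed level 1840 to 2405 TPM, of which Ehd3 alone gave 1101 to 1571 TPM). In the cultured control libraries 3 of 13 reached 1 TPM and the sum was 203 to 232 TPM, and Stab2, a scavenger receptor that defines these cells, was listed at 0 in all 6 cultured libraries. Kupffer cell markers summed to 93.7 to 195 TPM in quiescent libraries and 0.429 to 1.60 TPM in cultured ones. Quiescent replicate 2 stood apart in endothelial markers: Kdr, the VEGF receptor of endothelium, was 68.3 TPM there and 19.9 to 28.0 TPM in the other 3. How deeply the bulk libraries were sequenced cannot be read from TPM. In bulk samples, fewer cells of a type and less RNA per cell cannot be told apart.

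The first comparison, of quiescent stellate cells with whole liver, asks how far BMP ligand transcripts are concentrated in this cell type. Gdf2 was 1841, 1570, 1464 and 1979 TPM in the 4 quiescent libraries and 1.05, 2.63 and 2.27 TPM in the 3 liver libraries. Bmp5, a ligand with roles in cartilage and in other tissues, was 750, 814, 715 and 825 TPM against 0.764, 1.64 and 1.14 TPM. Bmp10, the ALK1 ligand also made by the heart, was 436, 546, 413 and 493 TPM against 0.120, 0.493 and 0.298 TPM. These 3 ligands were the most abundant BMP ligand transcripts of the quiescent cells per unit length, in the order Gdf2, Bmp5, Bmp10, and the ranges of neighbours in that order did not overlap. On the log2(TPM + 1) scale the differences from liver were 9.20 for Gdf2 (SE 0.20, limma adjusted p = 8.20e-12), 8.49 for Bmp5 (SE 0.15, adjusted p = 2.76e-12) and 8.50 for Bmp10 (SE 0.14, adjusted p = 2.49e-12).

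The other ligands were lower but also above liver. Bmp4 was 106, 90.2, 112 and 100.3 TPM in quiescent cells against 0.846, 3.45 and 1.29 TPM in liver. Bmp2 was 101, 144, 100.4 and 112 TPM against 0.901, 2.16 and 1.69 TPM. The 2 genes lay in the same range in quiescent cells, and both groups stood clear of liver. Bmp6 was 3.58, 9.68, 3.98 and 2.11 TPM against 0.226, 0.920 and 0.801 TPM, and quiescent replicate 2, which was highest in endothelial markers, was also highest in Bmp6, in Bmp2 and in Acvrl1. The part of these markers in the levels was not tested. Without replicate 2 the difference of Bmp6 from liver was 1.35 (limma adjusted p = 0.000200), against 1.70 (adjusted p = 0.000760) with it. That of Bmp2 was 5.38 without and 5.49 with it.

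**Figure D1:**
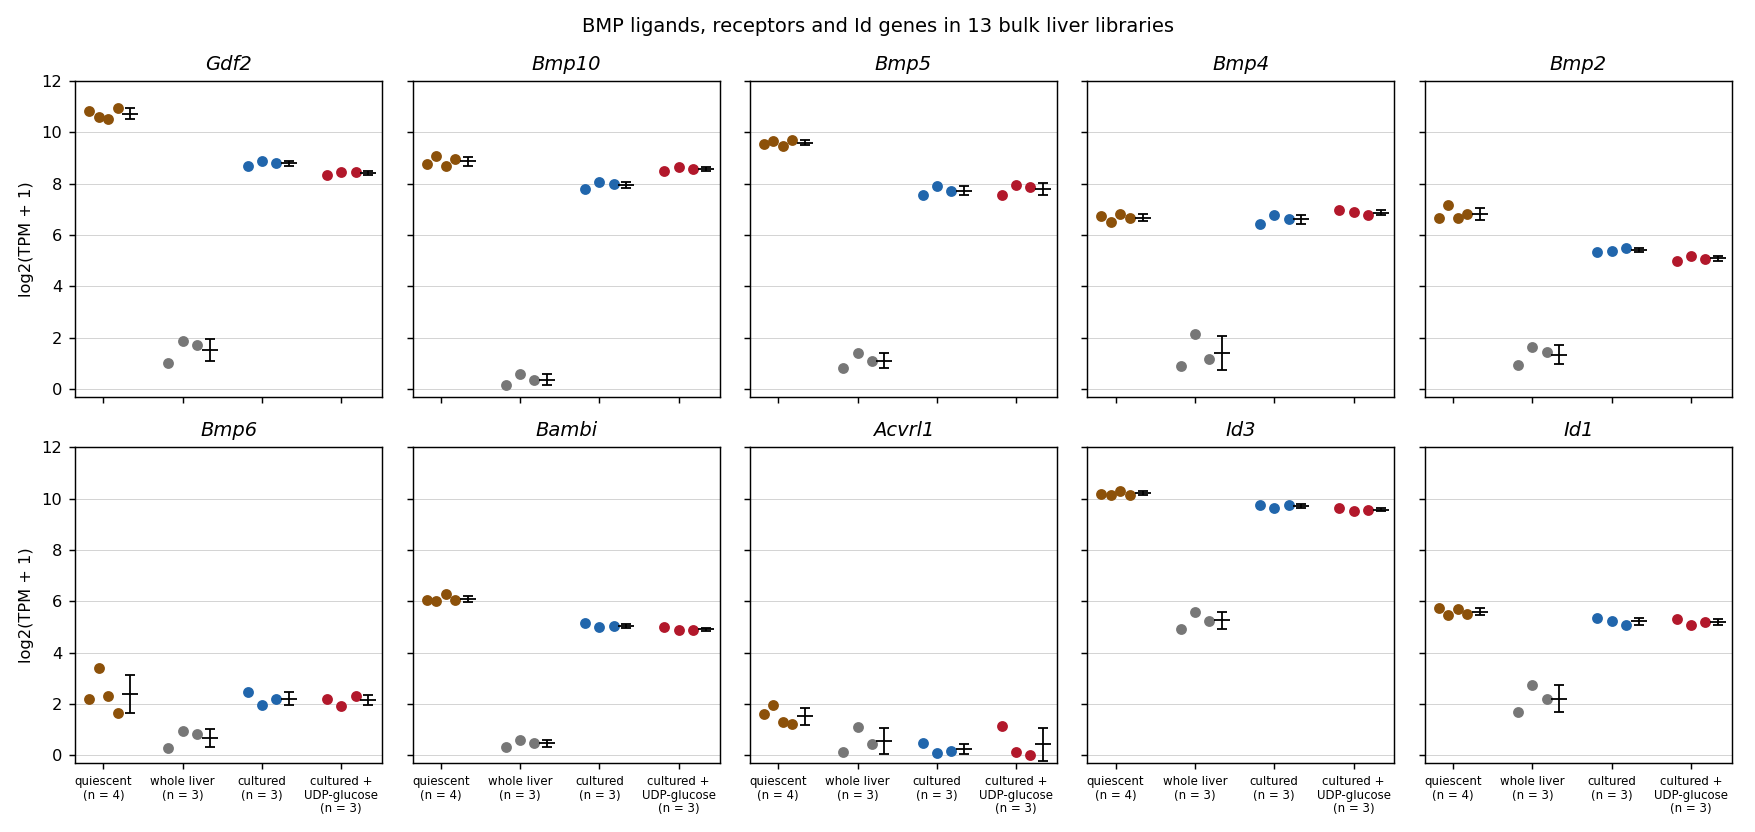
Abundance of the 10 genes as log2(TPM + 1) (y axis) in each bulk library (points, by group on the x axis), with the group mean and SD as a black bar beside the points. The 3 ligands Gdf2, Bmp10 and Bmp5 stand near the bottom in liver and are highest in quiescent cells, and Bmp10 is the ligand whose UDP-glucose points all lie well above the cultured controls.

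Bambi, Id1 and Id3 were also higher in quiescent cells. Bambi was 65.3, 64.3, 77.0 and 64.5 TPM against 0.265 to 0.499 TPM in liver (log2 5.63, limma adjusted p = 7.97e-12). Id3 was 1162, 1140, 1271 and 1128 TPM against 29.7, 47.2 and 37.0 TPM (log2 4.94, adjusted p = 1.08e-10). Id1 was 51.9, 43.4, 51.4 and 43.9 TPM against 2.18, 5.63 and 3.59 TPM (log2 3.40, adjusted p = 3.37e-08). Acvrl1 was low in both, at 1.34 to 2.90 TPM in quiescent cells and 0.0930 to 1.13 TPM in liver, and its difference of 0.97 stayed under the required log2 fold of 1. In all, 9 of the 10 genes rose and none fell, where 67.0% of all 12643 genes tested rose and 10.9% fell. The groups did not overlap for 10 of 10 genes, against 91.1% of all genes. The median log2 difference of the 10 genes was 5.38 and that of all genes 1.62. The shift of all genes depends on scaling: after median-of-ratios rescaling the median over all genes was 0.04 and called genes were 50.6% higher, against 86.0% before. Under that scaling 8 of the 10 genes rose, with a median of 3.82. Bmp6 fell under the threshold (0.60), and Acvrl1 was at 0.11, and at −0.06 after quantile normalisation.

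Among the listed ligands, 7 of 14 were abundant enough to test against liver and all 7 rose, the seventh being Gdf6, a ligand of joint and eye development (log2 4.63). The other 7 ligands were under the filter. Of 12 receptors and co-receptors tested, 9 rose and 1 fell (median 4.02). Eng was 1108, 1239, 1121 and 1161 TPM in quiescent cells against 4.28, 10.2 and 9.48 TPM in liver (log2 7.09, limma adjusted p = 1.45e-10). Tgfbr3, the co-receptor betaglycan, rose by 6.79 and Acvr2a, a type II receptor, by 5.09. Hjv, hemojuvelin, the BMP co-receptor of hepatocytes, was 37.4 to 48.1 TPM in liver and at most 0.150 TPM in quiescent cells (log2 −5.31).

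Of the 4 transducers, Smad5, Smad4 and Smad1 rose (log2 4.09, 3.12 and 2.88) and Smad9 fell (log2 −1.08). Of 13 antagonists and inhibitors tested, 10 rose and 2 fell (median 2.92), and the named ones beside Bambi were Fstl1, a secreted BMP-binding protein (log2 7.13), Crim1, a membrane protein that binds BMPs (log2 3.91), and Tmprss6, the hepatocyte protease that cleaves hemojuvelin (log2 −6.42). Of 13 response genes tested, 9 rose and 3 fell (median 2.63). Of all genes, 67.0% rose with a median of 1.62. The counts of receptors and co-receptors, transducers, antagonists and response genes that rose lie near that share. Hamp was 1120, 1120 and 1620 TPM in liver and listed at 0 in 3 of 4 quiescent libraries (log2 −10.10), and Hamp2, its paralog, also fell (log2 −4.75). Hes1, a repressor better known as a Notch target, rose by 5.14. All 7 tested bHLH partners of Id proteins rose (median 4.23), among them Tcf21 (log2 7.76) and Hand2 (log2 7.35), which are stellate cell factors, Tcf4, a class I factor (log2 5.07), and Twist2 (log2 4.23). Of the exon bases of Twist2, 46.5% overlap another gene model, of Hand2 19.6% and of Hamp2 15.3%. After median-of-ratios rescaling the receptor and transducer counts were the same, and 6 ligands, 8 antagonists, 8 response genes and 6 partners rose.

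The Id genes were differently balanced in the 2 groups. Of the summed TPM of Id1 to Id4, Id3 held 88.8% to 91.2% in quiescent cells and 26.1% to 27.7% in liver, and Id2 held 4.27% to 7.04% and 68.9% to 71.3%. Id2 itself, at 54.4 to 90.3 TPM in quiescent cells and 78.9 to 117 TPM in liver, overlapped between the groups (log2 −0.50).

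The single-cell library shows which liver cells carried these transcripts. It held 4807 cells after filtering, in 22 clusters, of which 18 were named from markers. The doublet caller marked 1 cell (0.0208%), so doublets were in effect not removed. With 1 library there is no test, and the intervals cover counting error only. Stellate-like cells (341 cells, 7.09% of the library) held 79.8% of all Gdf2 UMIs (unique molecular identifiers, each a counted transcript), 77.5% of Bmp10, 80.5% of Bmp5, 63.7% of Bmp4 and 70.0% of Bambi. Sinusoidal endothelial-like cells (2172 cells, 45.2%) held 74.1% of Bmp2 and 81.5% of Bmp6.

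In stellate-like cells Gdf2 reached 600.3 CPM (UMIs scaled to the same total in every class, 95% Poisson interval 556 to 647), Bmp5 425 (388 to 465), Bambi 408 (371 to 446), Bmp10 187 (163 to 214) and Bmp4 69.5 (55.1 to 86.7). In sinusoidal endothelial-like cells Gdf2 was 6.88 CPM (4.57 to 9.94), Bmp5 5.41 (3.39 to 8.19) and Bmp10 3.69 (2.06 to 6.08). A Gdf2 UMI was found in 81.8% of stellate-like cells (exact binomial interval 77.3% to 85.8%, median depth 3149 UMIs) and in 1.70% of T-like cells (median depth 2502 UMIs), which should lack it. For Bmp5 the shares were 73.9% and 0.850%, for Bmp10 41.3% and 0.567%, and for Bambi 62.5% and 1.70%. With each cell thinned to 1000 UMIs, Gdf2 was found in 45.4% of 339 stellate-like cells and 0.286% of 350 T-like cells, leaving out 2 and 3 shallower cells.

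Ligand transcripts occurred together in single stellate-like cells. Of the 341 cells, 4.11% had a UMI of none of Gdf2, Bmp5, Bmp10 and Bmp4, 16.4% of 1 of them, 44.9% of 2, 29.3% of 3 and 5.28% of all 4, at the depth given above. An unnamed cluster of 48 cells that led with both stellate and Kupffer genes also carried Gdf2 (410 CPM, 323 to 514) and Bmp10 (153, 102 to 221).

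Bmp4 and Bambi were also found outside stellate-like cells. Bambi was 132 CPM (36.0 to 338) in the 7 cholangiocyte-like cells, a value that rests on 4 UMIs. Vein or artery endothelial-like cells (192 cells) held Bmp4 at 64.5 CPM (41.7 to 95.2) and Bambi at 111 (80.3 to 149), against 0.737 (0.152 to 2.15) and 22.1 (17.8 to 27.2) in sinusoidal endothelial-like cells. Bmp10 had no UMI in the vein or artery class, where 3 UMIs would give 7.74 CPM and the upper end of the exact Poisson interval is 9.51 CPM.

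Bmp2 was highest in endothelial-like cells of this library. It reached 1190 CPM (1157 to 1224) in sinusoidal endothelial-like cells and 988 (891 to 1092) in vein or artery endothelial-like cells, against 303 (272 to 337) in stellate-like, 258 (226 to 292) in T-like and 205 (177 to 237) in Kupffer-like cells. A Bmp2 UMI was found in 43.1% of stellate-like cells and in 28.0% of T-like cells. For every 100 UMIs of the 13 sinusoidal endothelial markers there were 4.53 Bmp2 UMIs (4.40 to 4.66) in sinusoidal endothelial-like cells, 4.60 (4.12 to 5.12) in stellate-like, 4.44 (3.89 to 5.05) in T-like and 4.11 (3.54 to 4.75) in Kupffer-like cells. The intervals of the stellate-like, T-like and Kupffer-like ratios overlap that of sinusoidal endothelial-like cells. That of hepatocyte-like cells, at 3.40 (2.63 to 4.33), lies below it. By this ratio the Bmp2 of stellate-like cells was not set apart from that of T-like cells, which should lack it. The intervals of the thinned shares of stellate-like and T-like cells did not overlap. In bulk, Bmp2 per 100 TPM of the same markers was 1.67 to 1.81 in whole liver and 4.72 to 5.97 in quiescent cells. It was 17.8 to 20.004 in cultured controls and 16.2 to 17.8 with UDP-glucose. Ehd3 alone gave 1101 to 1571 TPM of the marker sum of 1840 to 2405 TPM in quiescent cells. In cultured controls it gave 151 to 181 TPM of 203 to 232 TPM, so in these groups the sum is mostly 1 gene. Ratios of TPM and of UMIs are unlike measures, so the bulk and single-cell values cannot be set against each other. The part of RNA from other cells was not tested. Among the 5 sinusoidal clusters Bmp2 ran from 908 (757 to 1081, cluster 17) to 1296 (1244 to 1351, cluster 6). Bmp6 was 18.4 CPM (14.5 to 23.1) in sinusoidal endothelial-like cells, with a UMI in 3.41% of them, and 2.64 (0.545 to 7.72) in stellate-like cells.

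**Figure D2:**
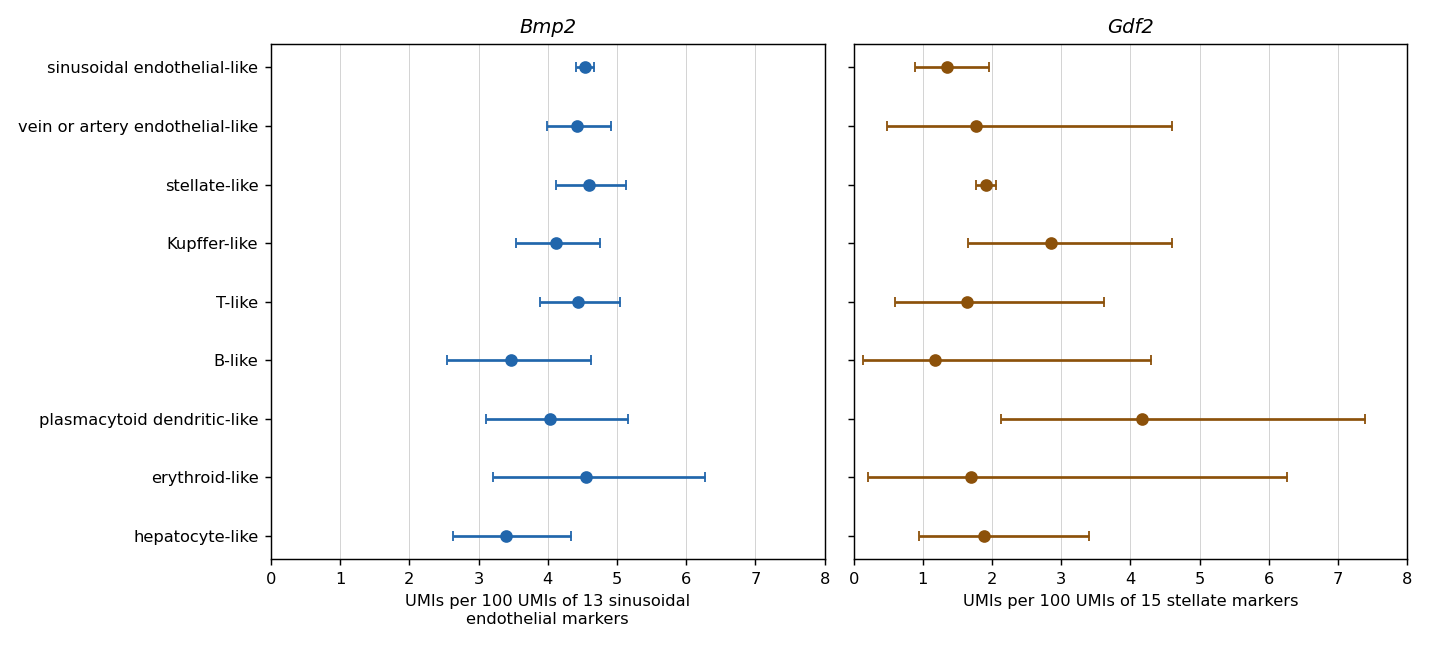
UMIs of Bmp2 per 100 UMIs of sinusoidal endothelial markers (left, x axis) and of Gdf2 per 100 UMIs of stellate markers (right, x axis) in 9 cell classes (y axis), with 95% counting intervals for the ratio of 2 counts. The Bmp2 ratio lies between 3.40 and 4.60 in all 9 classes, and the wide Gdf2 intervals outside stellate-like cells rest on few UMIs.

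Id3 was found in every class named here. It was 3170 CPM (2995 to 3352) in vein or artery endothelial-like cells, 2066 (1983 to 2151) in stellate-like, 2039 (1995 to 2083) in sinusoidal endothelial-like, 910 (850 to 973) in Kupffer-like, 434 (393 to 478) in T-like and 179 (158 to 203) in hepatocyte-like cells. The intervals of stellate-like and sinusoidal endothelial-like cells overlap. Per 100 sinusoidal endothelial marker UMIs, Id3 was 31.4 (29.9 to 32.9) in stellate-like cells against 7.77 (7.59 to 7.94) in sinusoidal endothelial-like, 7.48 (6.75 to 8.27) in T-like, 12.5 (10.6 to 14.6) in B-like, 12.8 (11.2 to 14.6) in hepatocyte-like and 18.2 (16.9 to 19.6) in Kupffer-like cells. In MHC class II myeloid-like cells the ratio was 31.0 (27.1 to 35.3), overlapping the stellate-like interval. Vein or artery endothelial-like cells stood at 14.2 (13.4 to 15.1). Unlike that of Bmp2, this ratio varied widely between classes outside the endothelium. Among the named classes Id1 was highest in vein or artery endothelial-like cells (449, 385 to 521). It was lower in sinusoidal endothelial-like (239, 224 to 254) and lower again in stellate-like cells (83.6, 67.7 to 102). An unnamed cluster of 83 cells stood at 420 (341 to 512) and the 7 cholangiocyte-like cells at 363 (181 to 650). Both intervals overlap that of vein or artery endothelial-like cells.

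Acvrl1 lay apart from its ligands. It was 104 CPM (84.1 to 127) in Kupffer-like cells, 55.6 (34.4 to 84.99) in MHC class II myeloid-like, 41.3 (23.6 to 67.0) in vein or artery endothelial-like and 39.3 (33.5 to 45.9) in sinusoidal endothelial-like cells. In stellate-like cells it was 7.92 (3.62 to 15.04), with a UMI in 2.64% of cells, against 9.50 (4.35 to 18.04) and 2.55% in T-like cells.

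**Figure D3:**
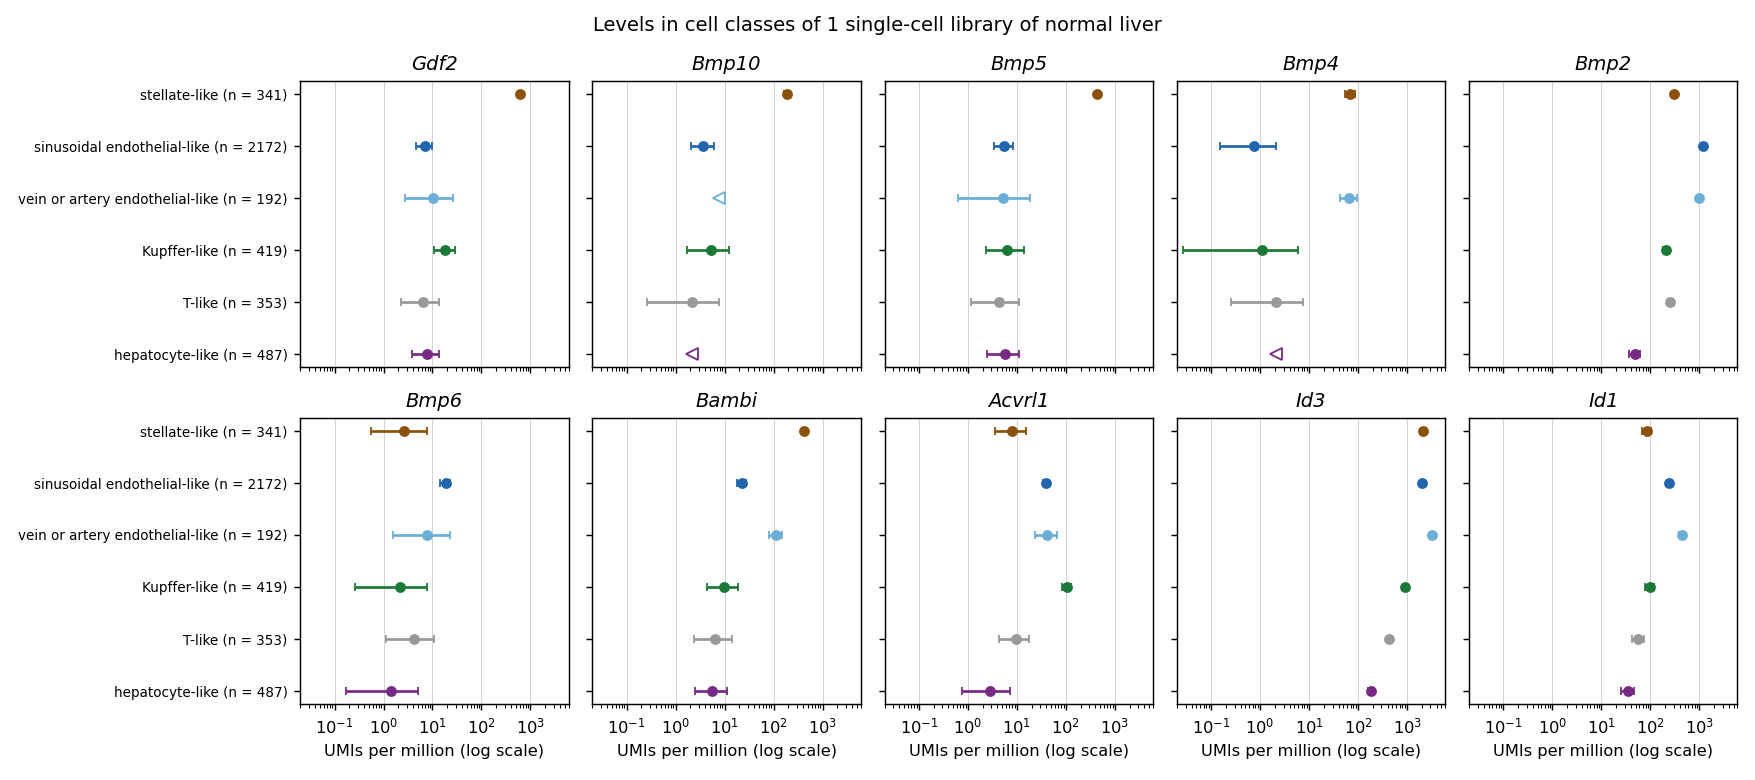
CPM, the UMIs scaled to the same total in every class (x axis, log scale), for the 10 genes in 6 cell classes of the single-cell library (y axis, n cells in parentheses), with 95% Poisson intervals, and open triangles at the level that 3 UMIs would give where none was found. Gdf2, Bmp10 and Bmp5 stand at the right only in the stellate-like row of these 6, and Bmp2 and Bmp6 are highest in the sinusoidal endothelial-like row.

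The genes whose profile over the 22 clusters was most like each of these were found by Pearson correlation of log2(CPM + 10), as a description. All clusters come from 1 library and may share free RNA, which was not measured. The search was over genes with at least 100 UMIs in the kept cells, leaving out predicted models and mitochondrial genes. Gdf2 was most like Col14a1, Pth1r and Gucy1a3 (r = 0.97, 0.97 and 0.97), Bmp5 like Hhip, Col14a1 and Arvcf (0.96, 0.96 and 0.96) and Bmp10 like Lama1, Arvcf and Cygb (0.97, 0.97 and 0.96). Bmp2 was most like Kdr, Tinagl1 and Aqp1 (0.99, 0.99 and 0.99), of which Kdr and Aqp1 are among the endothelial markers. Bambi was most like Snai1 (0.91), Bmp4 like Tln2 (0.89), Bmp6 like Shroom4 (0.89), Id1 like Txndc12 (0.94), Id3 like App (0.97) and Acvrl1 like Ehd4 (0.89). Smad6, an inhibitory Smad that BMP signals induce, was the third nearest of the genes searched to Id3 (0.96).

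Cultured control cells were compared with quiescent cells to see which transcripts differ after 24 h in culture. Strain, sort and table differ between these groups as well, and their parts cannot be told apart. The 2 most abundant ligands were lower in culture. The summed stellate markers were lower too (10407 to 11017 against 62002 to 68671 TPM), and their part in the ligand differences was not tested. Gdf2 was 415, 469 and 451 TPM in the 3 cultured libraries against 1464 to 1979 TPM in quiescent cells, a log2 difference of −1.93 (SE 0.11, limma adjusted p = 6.17e-07). Bmp5 was 186, 238 and 212 TPM against 715 to 825 TPM (log2 −1.87, SE 0.09, adjusted p = 2.90e-07). Bmp10 was 223, 266 and 250.1 TPM against 413 to 546 TPM, and its difference of −0.93 passed the p threshold (adjusted p = 4.87e-05) but stayed under the fold of 1. It reached −1.20 after median-of-ratios rescaling. Bmp4 was 85.4, 109 and 97.6 TPM, overlapping the quiescent cells, and its difference was −0.07 (95% interval −0.31 to 0.16).

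Bmp2 was 39.2, 41.2 and 44.2 TPM in culture against 100.4 to 144 TPM in quiescent cells (log2 −1.42, SE 0.13, limma adjusted p = 9.76e-06). Endothelial markers were lower in culture too, and their part in this difference was not tested. In the cultured control libraries Bmp2 stood at this level with Stab2 at 0 and Kdr at 0.195 to 0.507 TPM. Bmp6 was 4.50, 2.89 and 3.60 TPM, with a difference of −0.18 (interval −1.02 to 0.65), which was 0.16 without quiescent replicate 2. Acvrl1 was 0.395, 0.0739 and 0.115 TPM and fell by 1.28 (limma adjusted p = 0.000872). Without quiescent replicate 2, its highest library, the gene was under the filter and could not be tested. Among the named classes of the single-cell library its level was highest in Kupffer-like cells, whose markers were also lower in culture, and the part of those cells was not tested.

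Bambi was 34.3, 30.9 and 31.5 TPM in culture against 64.3 to 77.0 TPM (log2 −1.05, SE 0.09, limma adjusted p = 6.47e-06). Without quiescent replicate 3, the highest, the difference was −0.98 and missed the fold of 1. Id3 was 861, 789 and 853 TPM against 1128 to 1271 TPM (log2 −0.49, adjusted p = 0.000140), and Id1 was 39.6, 36.4 and 32.8 TPM against 43.4 to 51.9 TPM (log2 −0.38, adjusted p = 0.00739). Both Id genes were lower in all 3 cultured libraries, by less than the required fold. In all, 5 of 10 genes fell and none rose, where 13.2% of all 12537 genes tested fell and 18.6% rose. The groups did not overlap for 8 of 10 genes, all lower in culture, against 70.0% of all genes in either direction. The median log2 difference was −0.99 for the 10 genes and 0.26 for all genes, and it was −1.25 and 0.02 after median-of-ratios rescaling. Of all genes called, 58.6% were higher in culture, and 43.3% after that rescaling.

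**Figure D4:**
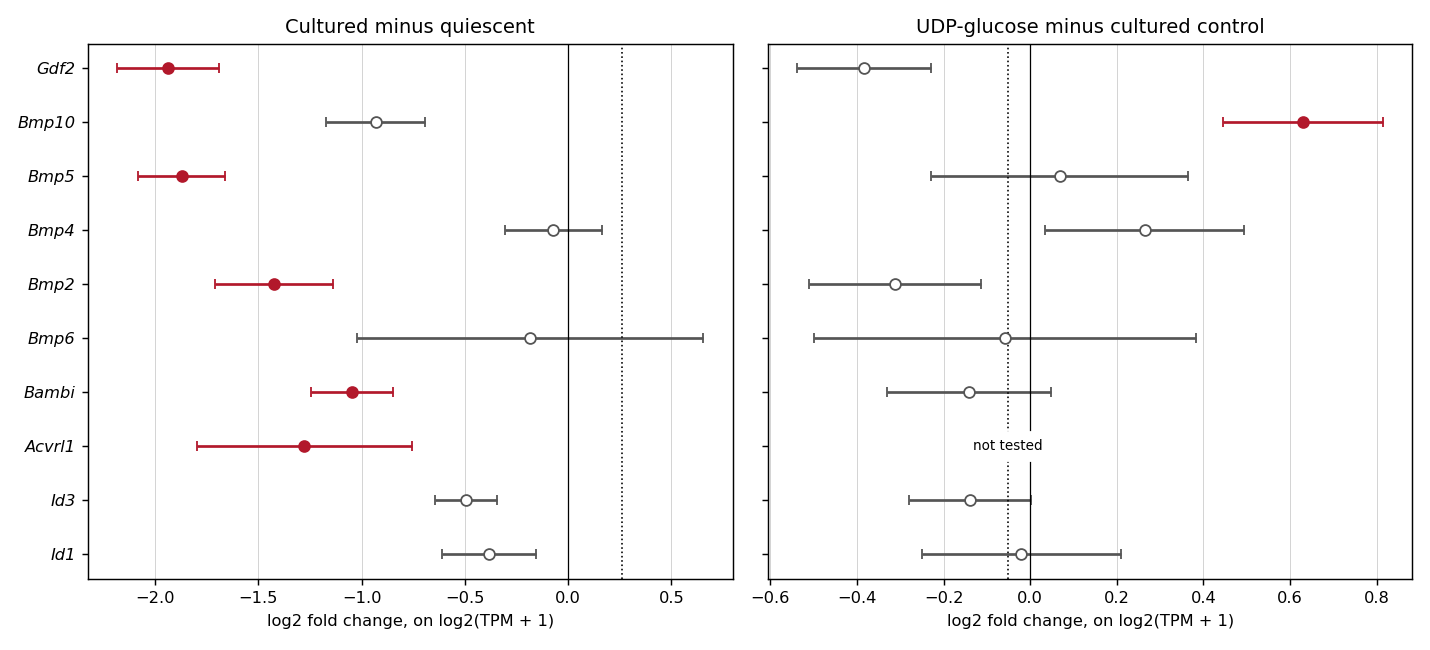
Log2 fold changes on log2(TPM + 1) (x axis) of the 10 genes (y axis), with limma 95% intervals, for cultured control minus quiescent cells (left) and UDP-glucose minus cultured control (right). Filled red points passed the test and the dotted line is the median of all genes; 5 genes passed on the left and Bmp10 on the right, and the comparisons share the 3 control libraries.

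Elsewhere in the pathway, the counts below stand beside 13.2% of all genes tested that fell and 18.6% that rose (median 0.26). Of 7 tested ligands, 4 fell in culture and none rose (median −1.01), the fourth being Gdf6 (log2 −1.01). The Gdf6 call was lost without quiescent replicate 2 or 3 or control replicate 1 or 3, where the difference came as near to 0 as −0.89. Of 11 receptors and co-receptors, 3 fell and none rose (median −0.39). Acvr2a was 33.4, 44.3 and 37.6 TPM against 103 to 153 TPM (log2 −1.70), and Eng 539, 570 and 543 TPM against 1108 to 1239 TPM (log2 −1.07). Smad5 fell by 1.07, a call lost at the fold of 1 without quiescent replicate 2 or without control replicate 1 (−0.99), and Smad9 rose by 1.55. Of 11 antagonists 3 fell and 2 rose (median 0.26). Htra1, a secreted protease, fell by 2.64 and Twsg1, a BMP-binding protein, by 1.19, and Fstl3, which binds activins and BMPs, and Bmper, a BMP-binding endothelial regulator, rose by 2.57 and 1.36. Of the exon bases of Fstl3, 47.3% overlap the antisense gene Prss57.

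Of 11 response genes, 4 rose and 3 fell in culture (median −0.02), where 18.6% of all genes tested rose and 13.2% fell (median 0.26). Atoh8, a BMP-induced bHLH factor, was 99.2, 95.5 and 102.5 TPM against 15.2 to 21.7 TPM (log2 2.37), and Smad6 was 103, 106 and 113 TPM against 27.7 to 42.2 TPM (log2 1.51). Hes1 was 44.5 to 56.5 TPM against 408 to 535 TPM (log2 −3.17), and Id4 fell by 2.19. Id2 rose by 1.18, at 157, 156 and 159 TPM, and its share of the summed Id TPM was 14.8% to 15.9%, above all quiescent libraries. Of 7 bHLH partners, Hand2, Tcf21 and Twist2 fell (log2 −1.71, −1.24 and −1.16) and none rose (median −0.84). After median-of-ratios rescaling 5 ligands, 5 receptors and 5 partners fell, and Id2 was no longer called.

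UDP-glucose is a nucleotide sugar that, outside cells, activates the receptor P2Y14, and the treated libraries ask what it changes in stellate cells over 24 h. Bmp10 was higher with it. The gene was 359, 402 and 384 TPM in the 3 UDP-glucose libraries and 223, 266 and 250.1 TPM in the 3 controls, or 381 ± 21.6 against 246 ± 21.6 TPM (SD, n = 3 each). The difference was 0.63 on the log2 scale (SE 0.08, 95% interval 0.45 to 0.82, limma adjusted p = 0.0233), 1.55 times on the means, and every treated library exceeded every control. Bmp10 was the 1 gene of the 9 tested that rose and none fell, where 0.428% of all 12161 genes tested rose and 0.181% fell. Of the 74 genes called, 70.3% were higher, and 86.3% of 73 after median-of-ratios rescaling, where Bmp10 was at 0.68. The call depends on single libraries: with control replicate 1 or 3 or UDP-glucose replicate 1, 2 or 3 left out, the difference was 0.56 to 0.67 and the adjusted p 0.0570 to 0.120, and without control replicate 2 it was 0.69 (adjusted p = 0.0206).

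The summed stellate markers were 8314 to 9606 TPM with UDP-glucose against 10407 to 11017 TPM, and their part in the values below was not tested. Gdf2, the other ALK1 ligand, was 322, 348 and 351 TPM with UDP-glucose against 415, 469 and 451 TPM. Its groups did not overlap, and its difference of −0.38 (95% interval −0.54 to −0.23) missed the threshold (limma adjusted p = 0.0648). Bmp2 was 31.2, 35.8 and 32.8 TPM against 39.2, 41.2 and 44.2 TPM (log2 −0.31, limma adjusted p = 0.252). The summed endothelial markers were 192 to 203 TPM against 203 to 232 TPM. Of these sums Ehd3 alone gave 148 to 161 TPM and 151 to 181 TPM, and Stab2 was listed at 0 in both groups. Bmp4 was 124, 117 and 109 TPM against 85.4, 109 and 97.6 TPM (log2 0.26, adjusted p = 0.428). These 3 differences were not called.

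The remaining genes were close between the 2 cultured groups. Bmp5 differed by 0.07 (95% interval −0.23 to 0.36), Bmp6 by −0.06 (−0.50 to 0.38), Id1 by −0.02 (−0.25 to 0.21), Id3 by −0.14 (−0.28 to 0.00) and Bambi by −0.14 (−0.33 to 0.05). Acvrl1, at 1.23, 0.0928 and 0 TPM with UDP-glucose, was under the filter and not tested. Of the 9 genes tested, groups did not overlap for 5 (2 higher, 3 lower), against 16.3% of all genes. Bmp4 and Bambi are in this count by near ties. For Bmp4 the lowest UDP-glucose value was 109.294 TPM and the highest control value 109.285 TPM. For Bambi the highest UDP-glucose value was 30.75 TPM and the lowest control value 30.90 TPM. The median of the 9 was −0.06 and that of all genes −0.05.

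The balance of the ligands differed between the cultured groups as well. The ratio of Bmp10 to Gdf2 TPM was 0.237 to 0.347 in quiescent cells, 0.538, 0.567 and 0.555 in cultured controls and 1.11, 1.15 and 1.09 with UDP-glucose, where Bmp10 exceeded Gdf2 in all 3 libraries. This ratio was chosen after its values were seen, and it is given with no test. Bmp10 held 13.4% to 17.0% of the summed TPM of the 14 ligand genes in quiescent cells, 23.1% to 23.3% in cultured controls and 33.98% to 34.5% with UDP-glucose, and Gdf2 held 48.9% to 56.5%, 41.1% to 43.0% and 29.8% to 31.1%. The summed ligand TPM was 2839 to 3535 in quiescent cells and overlapped between cultured controls (965 to 1141) and UDP-glucose (1040 to 1169).

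**Figure D5:**
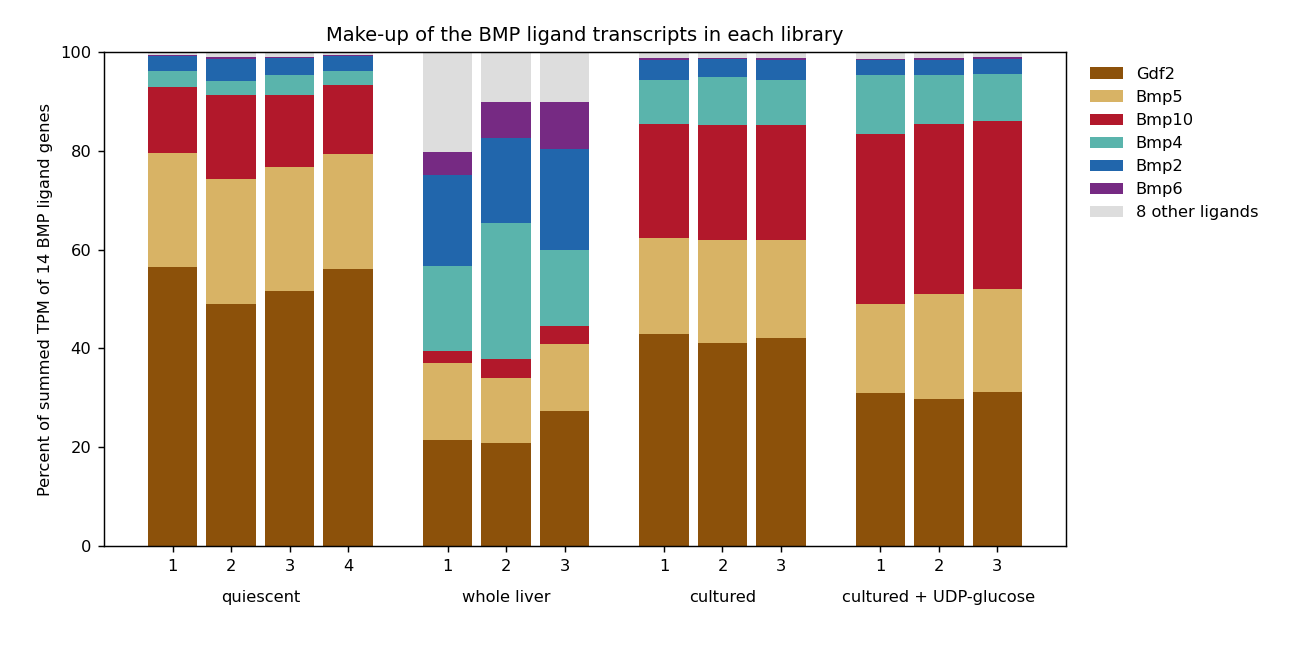
Percent of the summed TPM of 14 BMP ligand genes (y axis) held by each ligand in each of the 13 bulk libraries (x axis, by group and replicate). The Bmp10 part is 13.4% to 17.0% in quiescent, 23.1% to 23.3% in cultured and 33.98% to 34.5% in UDP-glucose libraries, and the Gdf2 part is smallest among stellate cells with UDP-glucose.

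The rest of the pathway gave 1 further call with UDP-glucose. Fstl3 was 26.5, 26.9 and 26.4 TPM against 17.3, 17.5 and 15.5 TPM (log2 0.63, SE 0.09, limma adjusted p = 0.0269), 1 of 11 antagonists tested, and this call was also lost in 5 of the 6 fits that left out a library (adjusted p 0.0832 to 0.152). None of 10 receptors, 4 transducers, 9 response genes and 7 bHLH partners was called. Among response genes, Id2 came nearest, at 186, 203 and 199 TPM against 157, 156 and 159 TPM (log2 0.31, adjusted p = 0.0733), and its share of Id TPM was 18.3% to 21.2%.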

How the data were processed

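Bulk values are TPM per gene as deposited by the authors in 3 tables for quiescent cells, whole liver and the cultured cells. Kallisto 0.44.0 and GRCm38 are named in the submitters' processing notes, and no source used here states whether strand was used. Single-cell values are deposited counts of UMIs per gene and barcode, with Cell Ranger and mm10 named in the same notes. From every bulk table, 26 rows with calendar dates for names, at most 0.319% of TPM, were left out. Library pairs within groups correlated at 0.981 to 0.991.

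Bulk comparisons were fitted with limma 3.58.1 (R 4.3.3) on log2(TPM + 1) over genes averaging 1 TPM or more across the compared libraries, two-sided, with Benjamini-Hochberg adjustment over all genes and a threshold of 0.05, plus an absolute log2 fold of at least 1 in the comparisons with liver and with quiescent cells. Fold changes on this scale understate the change of low genes. The script was tested on simulated data. The labels do not say that libraries came from separate animals, so the p-values reflect the spread among these samples, which may be technical. Groups in separate tables differ by table as well.

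Single cells (scanpy 1.11.5, Python 3.11.15) had at least 500 UMIs, 200 genes and at most 20% mitochondrial UMIs. With 2000 variable genes, 30 components, 15 neighbours and Leiden resolution 1, clusters were named from fixed markers by a score set after seeing the data: at least 3 markers among the 50 leading genes, 2 times as many as the next type, none ahead among the first 10. Of the cells, 266 stayed unnamed. Levels are CPM, UMIs scaled to one total per class, with exact Poisson intervals and shares carry Clopper-Pearson intervals (95%). These cover counting error only.

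Named genes are the 10 genes and, per list, up to 4 called genes of largest fold with at least 5 TPM in a group, and for likeness the nearest 3, of which some are printed. Gdf6 against liver, Smad9 and Id2 were added after their values were seen. The genes and lists were chosen with earlier results of these data known. Alternatives were a pseudocount of 0.1, no filter, 2 other scalings, 1 fit of all 13 libraries, leaving out each library, and other cell filters.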

Additional observations from a re-analysis of the deposited data

Results flagged for a closer look

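In 2 of the 35 groups of 4 libraries tested, 1 library lay far from the others, and chance flags about 1 group in 20. Bambi was 77.0 TPM in quiescent replicate 3 and 64.3 to 65.3 TPM in the other 3. Fstl3 was 3.14 TPM in the same library and 1.60 to 1.73 TPM in the others, with an antisense gene over 47.3% of its exon bases.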

How the results depend on the processing

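No paired analysis was possible because the labels give no shared replicate numbers. The number of genes called for quiescent cells against liver was 9847, and 6490 after quantile normalisation. For UDP-glucose it was 74, and 30 with no filter on low values, 23 with all 13 libraries in 1 fit, and 20 to 64 with 1 library left out. Bmp10 with UDP-glucose had an adjusted p of 0.0834 with no filter and 0.0706 in the shared fit (limma), and 0.0105 to 0.0233 under the other pseudocount and scalings. No called difference of the 10 genes changed sign under any alternative run, and Acvrl1 in culture could not be tested without quiescent replicate 2. Against liver, Acvrl1 reached the fold of 1 with a pseudocount of 0.1 (2.01) and without quiescent replicate 3 or 4 or liver replicate 2 (1.04 to 1.23). In the single-cell library 15 of 60 values moved beyond their counting interval: 10 were shares after thinning, and Id3 in vein or artery endothelial-like cells was 2379 CPM with at least 1000 UMIs per cell, 2944 with scored doublets kept and 2749 without the top 4% of doublet scores (an alternative chosen after seeing the data). The shares after thinning fall by design, since thinning removes UMIs, and the cause of the other changes was not tested. The bulk depth is unknown, so low genes such as Acvrl1 and Bmp6 carry errors that cannot be stated.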
